A study of Mus musculus with 22 samples.

Results

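The 10 genes Pdgfra, Pdgfrb, Dcn, Lum, Fn1, Fbn1, Vim, Sox9, Twist1 and Scx, which are used to recognise fibroblasts and the mesenchyme of the endocardial cushions, were followed through RNA-seq of mouse heart ventricles at E13.5. They were taken by gene symbol from the count tables of both experiments, as 10 of the 48709 genes listed in each table. Of these, 9 had counts in every library, and Scx had 0 counts in all 18 libraries. All embryos carried Nkx2.5-Cre, which recombines floxed alleles in cardiac precursor cells, so cells of the ventricle outside that lineage keep intact alleles. The first experiment held 3 libraries of LIN9 wt ventricles and 3 of LIN9 KO ventricles (floxed Lin9), whose labels name no Sav1 genotype. In the second, 3 libraries were made for each of 4 genotypes: control (LIN9 wt and Sav1 wt), Sav1 KO (floxed Sav1, LIN9 wt), LIN9 KO (Sav1 wt) and double knockout. The LIN9 wt genotype is heterozygous, Lin9 fl/+, in the study's text and wild-type in the sample labels. The study's text speaks of biological duplicates, each in triplicate, for the LIN9 comparison. Its methods describe triplicate isolations of RNA from ventricular tissue. Neither the text nor the labels say whether the libraries of a triplicate came from separate embryos or from pools. The p-values here thus set differences against the spread between libraries within groups, which may be technical. The 4 ChIP-seq samples of the series were not analysed here.

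LIN9 is a subunit of the MuvB complex, which together with B-MYB activates genes of mitosis, often through a promoter element called the cell cycle genes homology region (CHR). SAV1 is a scaffold protein of the Hippo kinase cascade, which restrains YAP, and YAP acts on DNA through TEAD factors. Fibroblasts and pericytes of the embryonic heart descend mainly from the epicardium, and cushion mesenchyme mainly from the endocardium by epithelial-to-mesenchymal transition, with PDGF receptors, SOX9 and TWIST1 among the regulators of these cells. The matrix genes of the group are also expressed elsewhere in the embryo, Fn1 and Vim in endothelium among others, so that none of the 10 is exclusive to fibroblasts.

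Libraries of the first experiment held 9485599 to 9615274 counts and those of the second 2770741 to 2999877. Levels are given in CPM, which are counts relative to library sizes normalized by TMM. The smallest count of any of the 9 genes was 73, for Twist1 in a Sav1 KO library. Cardiac muscle was visible in every group, as 10 counted cardiomyocyte markers summed to at least 10263 CPM in each library. Replicate libraries differed by more than sampling noise in all groups, and replicate 3 of LIN9 KO in the second experiment stood furthest from its partners there (chi-square per gene of 15.2 and 21.5, against 1.22 to 7.33 for the other pairs of that experiment). The LIN9 KO libraries of the first experiment were apart by 16.2 to 26.2 on this scale. Where a result of the second experiment changes without that replicate 3, its value is given. Lin9 itself, counted over the whole gene, had a log2 fold change of -0.31 in LIN9 KO of the first experiment (edgeR adjusted p = 0.130), fell by 0.80 in LIN9 KO of the second (edgeR adjusted p = 0.00269) and had one of -0.16 between double knockout and Sav1 KO (edgeR adjusted p = 0.586). Sav1 had a log2 fold change of -0.50 in Sav1 KO (edgeR adjusted p = 0.317) and of -0.23 in double knockout against LIN9 KO (edgeR adjusted p = 0.465), and it fell by 0.44 in double knockout against control (edgeR adjusted p = 0.00874). Lin9 was higher in every double knockout than in every LIN9 KO library (log2 fold change 0.56, edgeR adjusted p = 0.238), and double knockouts overlapped control and Sav1 KO in Lin9. Since reads from the intact rest of each gene still count, these values are a weak check of the deletions.

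Promoter sequence could be matched for 4 of the 10 genes (Vim, Fbn1, Pdgfra and Twist1; RefSeq, build GRCm38.p6). The 250 bases before the start site are shown for both genes that held CHR letters, read here as TTTGAA or TTCGAA on either strand and set in capitals. The Pdgfra window lies at chr5:75152001-75152250 on the plus strand and the Twist1 window at chr12:33957421-33957670 on the plus strand.
Pdgfra: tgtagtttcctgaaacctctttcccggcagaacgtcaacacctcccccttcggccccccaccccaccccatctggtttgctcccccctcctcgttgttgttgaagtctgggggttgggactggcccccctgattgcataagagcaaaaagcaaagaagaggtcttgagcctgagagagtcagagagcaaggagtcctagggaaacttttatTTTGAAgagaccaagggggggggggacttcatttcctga
Twist1: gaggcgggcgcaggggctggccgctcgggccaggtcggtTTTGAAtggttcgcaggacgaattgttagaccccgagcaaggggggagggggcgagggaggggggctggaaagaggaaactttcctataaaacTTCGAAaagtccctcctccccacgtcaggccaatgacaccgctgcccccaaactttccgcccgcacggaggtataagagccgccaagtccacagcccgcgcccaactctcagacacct

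The Pdgfra window held TTTGAA from 39 to 34 bases before the start site. Twist1 held TTTGAA from 211 to 206 and TTCGAA from 118 to 113 bases before it. The windows of Vim and Fbn1 held neither form. Start sites here are those of RefSeq, whereas the gene positions given below are those of GENCODE. By the latter Pdgfra starts at chr5:75152292, past the end of its window, and the windows of Vim and Fbn1 lie inside the genes. For Twist1 the start is the same in both. Of all 32851 mouse promoter windows of this length, 17.1% held CHR letters. The TEAD letters GGAATG, on either strand, were in none of the 4 windows and in 12.6% of all windows. These matches describe letters and not binding sites.

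Deletion of Lin9 went with higher levels of nearly the whole group in both experiments. Of the 9 counted genes, 8 rose in LIN9 KO of the first experiment by the quasi-likelihood test of edgeR, adjusted over all genes by Benjamini-Hochberg, where 11.1% of 19752 tested genes rose. All 9 rose in LIN9 KO of the second experiment, where 12.7% of 17675 did. With DESeq2 the counts were 9 in the first and 8 in the second, where 1886 of 19752 and 1631 of 17675 tested genes rose. With replicate numbers as a block they were again 9 and 8, where 2629 and 2374 of these genes rose. The median log2 fold change of the 9 was 0.94 in the first and 0.68 in the second, against 0.02 and 0.01 over all tested genes. Every LIN9 KO library lay above every LIN9 wt library for all 9 genes in both experiments, a pattern found for 18.4% and 18.3% of all tested genes. The rises that passed ranged from 1.35-fold (Sox9 in the second experiment) to 2.53-fold (Pdgfra in the first).

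**Figure D1:**
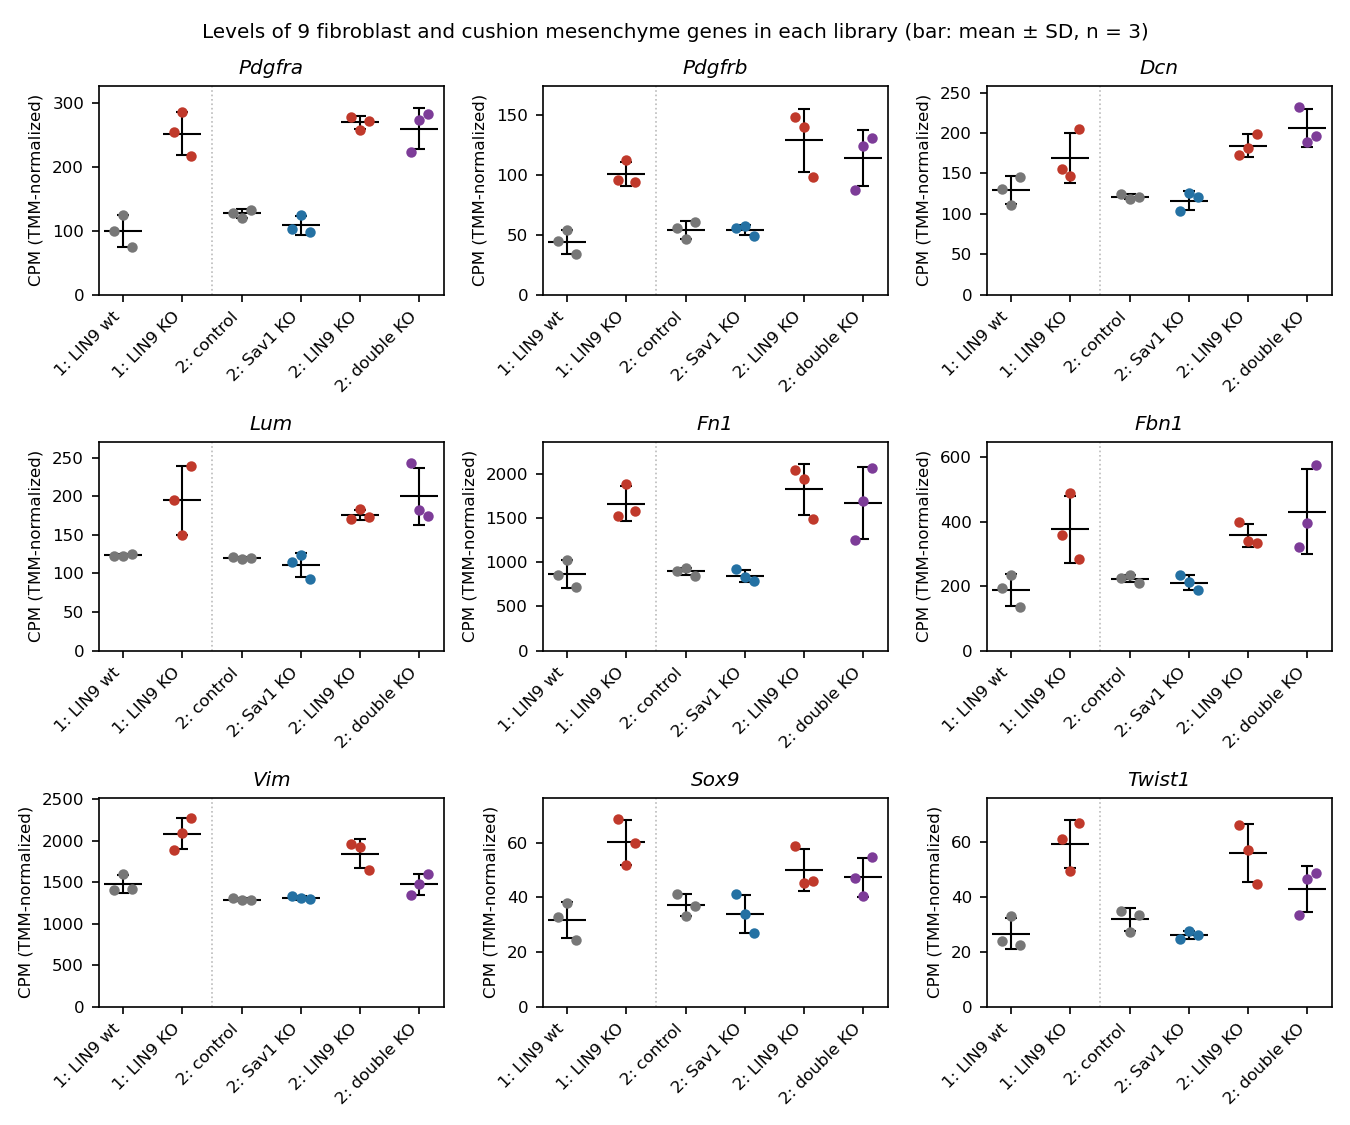
TMM-normalized CPM of the 9 counted genes (vertical axes, starting at 0) in each library of the 2 experiments (horizontal axes, experiment number before the genotype). Points are libraries, and bars are the mean ± SD of 3 libraries. For all 9 genes the LIN9 KO points lie above the LIN9 wt or control points, and the double knockout points of Vim lie between those of LIN9 KO and control.

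The PDGF receptors had the largest log2 fold changes of the 9 in both experiments. Pdgfra, the receptor tyrosine kinase for PDGF-A and PDGF-C that marks cardiac fibroblasts and their precursors (ENSMUSG00000029231, chr5:75152292-75198215), stood at 100.1, 125 and 74.3 CPM in the 3 LIN9 wt libraries of the first experiment and at 254, 285 and 217 CPM in LIN9 KO. The lowest LIN9 KO library thus held 217 CPM against a highest control of 125. Its log2 fold change was 1.34 (standard error 0.17, edgeR adjusted p = 2.91e-04). The second experiment gave 128, 119.8 and 133 CPM in controls, 102, 125 and 97.2 CPM in Sav1 KO, 278, 258 and 272 CPM in LIN9 KO and 222, 273 and 282 CPM in double knockouts. The 6 libraries with deleted Lin9 were well apart from the 6 without. The log2 fold change was 1.09 for LIN9 KO against control (standard error 0.11, edgeR adjusted p = 1.68e-08) and 1.26 for double knockout against Sav1 KO (standard error 0.11, edgeR adjusted p = 1.55e-09). Of the exonic length of Pdgfra, 6.5% lies under exons of other annotated genes.

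Pdgfrb, the receptor of PDGF-B on pericytes and mesenchyme (ENSMUSG00000024620, chr18:61045150-61085061), rose in every comparison of deleted with intact Lin9. It held 44.6, 53.7 and 33.9 CPM in LIN9 wt and 95.2, 112 and 93.9 CPM in LIN9 KO of the first experiment. In the second, LIN9 KO libraries held 148, 139 and 98.4 CPM against 55.8, 45.9 and 60.5 CPM in controls. Replicate 3 of LIN9 KO was the lowest of its group and still above every control. The log2 fold changes were 1.19 (standard error 0.15, edgeR adjusted p = 8.69e-05) and 1.25 (standard error 0.17, edgeR adjusted p = 4.80e-05). Sav1 KO libraries stood at 55.8, 56.7 and 49.1 CPM and double knockouts at 86.9, 124 and 130.1 CPM, a log2 fold change of 1.07 (standard error 0.17, edgeR adjusted p = 2.30e-04). Among 4 PDGF ligand genes, 2 rose and 1 fell in both LIN9 comparisons, against 8.07% of 17656 genes that rose and 6.77% that fell in both. Pdgfc rose by 1.03 and 0.67 and Pdgfb by 0.41 and 0.45 on the log2 scale in the first and second experiments, while Pdgfa fell, with -0.52 and -0.46. Of the exonic length of Pdgfa, 26.1% lies under exons of an opposite-strand gene, so its reads may be shared.

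Dcn and Lum encode small leucine-rich proteoglycans, which bind collagen fibrils and set their spacing. Both had smaller log2 fold changes than the receptors in the first and second LIN9 comparisons. Dcn (decorin, ENSMUSG00000019929, chr10:97479609-97518143) held 131, 111 and 146 CPM in LIN9 wt and 155, 147 and 204 CPM in LIN9 KO of the first experiment. The groups did not overlap, but the highest control and the lowest knockout library were close. This was the only LIN9 difference among the 9 genes in these 2 comparisons that missed the threshold (log2 fold change 0.38, standard error 0.14, edgeR adjusted p = 0.0600). It passed with DESeq2 (adjusted p = 0.0495) and without the filter on low counts (edgeR adjusted p = 0.0129). With replicate numbers as a block it also passed (0.38, edgeR adjusted p = 0.00291). The same held without LIN9 KO replicate 2 (log2 fold change 0.47, edgeR adjusted p = 0.0261). Over all single libraries left out it ran from 0.22, without LIN9 KO replicate 3, to 0.48, with an edgeR adjusted p of up to 0.244. In the second experiment Dcn rose from 125, 118 and 120.3 CPM in controls to 172, 182 and 199 CPM in LIN9 KO (log2 fold change 0.61, standard error 0.10, edgeR adjusted p = 7.43e-05). It also rose from 104, 125 and 120.3 CPM in Sav1 KO to 233, 189 and 196 CPM in double knockouts (log2 fold change 0.82, standard error 0.10, edgeR adjusted p = 1.10e-06).

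Lum (lumican, ENSMUSG00000036446, chr10:97565128-97572703), the neighbour of Dcn on the chromosome, had a nearly constant level in controls. It stood at 123, 123 and 125 CPM in LIN9 wt of the first and at 122, 119 and 119.6 CPM in controls of the second experiment. LIN9 KO libraries held 195, 150.4 and 239 CPM and 171, 183 and 174 CPM. The log2 fold changes were 0.66 (standard error 0.14, edgeR adjusted p = 0.00402) and 0.55 (standard error 0.12, edgeR adjusted p = 8.63e-04). Lum was at 115, 124 and 93.1 CPM in Sav1 KO and at 243, 182 and 175 CPM in double knockouts, a log2 fold change of 0.85 (standard error 0.12, edgeR adjusted p = 3.44e-06). Of 13 further genes of the family listed, 6 were tested, and 5 that lie within other genes (Aspn, Chad, Ecm2, Ogn and Omd) were at 0 in all libraries and not measurable, as described for Scx below. Of the 6, Bgn (biglycan, 1.50 and 1.43) and Fmod (fibromodulin, 0.60 and 0.75) rose in both LIN9 comparisons, as did 8.07% of all genes.

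Both glycoprotein genes of the extracellular matrix rose wherever Lin9 was deleted. Fn1, which encodes fibronectin, the ligand of several integrins (ENSMUSG00000026193, chr1:71585520-71653200), had 854, 1030.0 and 718 CPM in LIN9 wt and 1525, 1892 and 1585 CPM in LIN9 KO of the first experiment. Controls of the second held 904, 938 and 852 CPM, Sav1 KO 921, 837 and 791 CPM, LIN9 KO 2046, 1948 and 1499.5 CPM and double knockouts 1251, 1696 and 2073 CPM. No library with deleted Lin9 reached down to the others, although the double knockouts spread from 1251 to 2073 CPM. The log2 fold change was 0.94 in the first experiment (standard error 0.15, edgeR adjusted p = 4.10e-04), 1.03 for LIN9 KO against control (standard error 0.15, edgeR adjusted p = 1.37e-04) and 0.98 for double knockout against Sav1 KO (standard error 0.15, edgeR adjusted p = 2.31e-04). Among 10 genes for fibronectin receptors and their adaptors, 5 rose in both LIN9 comparisons (8.07% of all genes) and none fell in either. Examples are the integrin subunits Itga4 (1.85 and 1.29) and Itgav (0.89 and 1.17) and the syndecan Sdc4 (0.96 and 1.43), as log2 fold changes in the first and second experiments.

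Fbn1, which encodes fibrillin-1, the backbone of microfibrils (ENSMUSG00000027204, chr2:125300594-125507993), had the largest standard error of the 9 in the first experiment. It held 195, 233 and 136 CPM in LIN9 wt and 358, 489 and 283 CPM in LIN9 KO of the first experiment (log2 fold change 1.00, standard error 0.25, edgeR adjusted p = 0.0249). That call was lost without the filter on low counts (1.00, edgeR adjusted p = 0.0958). The second gave 226, 233 and 211 CPM in controls and 398, 341 and 335 CPM in LIN9 KO (log2 fold change 0.68, standard error 0.17, edgeR adjusted p = 0.0131). Without LIN9 KO replicate 1 the latter was 0.58 (edgeR adjusted p = 0.0664), and with replicate numbers as a block it was 0.68 (edgeR adjusted p = 0.0555). Double knockouts stood at 321, 396 and 577 CPM and Sav1 KO at 234, 212 and 187 CPM (log2 fold change 1.03, standard error 0.18, edgeR adjusted p = 9.35e-04). Reads of this gene may be shared, as 20.1% of its exonic length lies under an exon of a gene on the opposite strand. Of 18 tested microfibril and elastic fibre genes, 12 rose and 1 fell in both LIN9 comparisons (8.07% and 6.77% of all genes). The ADAMTS-like glycoprotein gene Adamtsl2 (1.48 and 1.67) and the crosslinking enzyme Lox (1.38 and 1.27) rose, and the microfibril-associated Mfap5 fell (-1.26 and -1.55).

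Vim, which encodes the intermediate filament protein vimentin (ENSMUSG00000026728, chr2:13573927-13582826), was the most abundant of the group per length. It was the only one of the 9 whose double knockout libraries all lay between LIN9 KO and control. It held 1408, 1596 and 1418 CPM in LIN9 wt and 1891, 2091 and 2274 CPM in LIN9 KO of the first experiment (log2 fold change 0.50, standard error 0.13, edgeR adjusted p = 0.0138). The call was lost without LIN9 wt replicate 1 (0.47, edgeR adjusted p = 0.0951) or replicate 3 (0.48, edgeR adjusted p = 0.0608). In the second experiment controls held 1305, 1279 and 1284 CPM, Sav1 KO 1330.4, 1303 and 1291 CPM, double knockouts 1349, 1474 and 1603 CPM and LIN9 KO 1959, 1923 and 1643 CPM. LIN9 KO libraries lay above the double knockouts, and these lay above both other groups, with no overlap. Vim rose in LIN9 KO (log2 fold change 0.51, standard error 0.10, edgeR adjusted p = 2.01e-04) but missed the threshold between double knockout and Sav1 KO (0.17, standard error 0.10, edgeR adjusted p = 0.207). The latter was 0.091 without double knockout replicate 3 (edgeR adjusted p = 0.618). Among 5 tested genes for other intermediate filaments and their linkers, Nes (nestin) rose (1.20 and 0.75) and Plec (plectin) fell (-0.86 and -0.68), as log2 fold changes in the first and second experiments, where 8.07% of all genes rose and 6.77% fell in both.

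The transcription factors had the fewest counts. Sox9, a regulator of cushion mesenchyme and cartilage (ENSMUSG00000000567, chr11:112782224-112787760), held 32.7, 37.8 and 24.5 CPM in LIN9 wt and 68.5, 52.0 and 59.9 CPM in LIN9 KO of the first experiment, a log2 fold change of 0.92 (standard error 0.15, edgeR adjusted p = 6.87e-04). It was at 41.2, 33.2 and 37.0 CPM in controls and at 58.8, 45.2 and 45.8 CPM in LIN9 KO of the second. This smaller difference of 0.43 on the log2 scale (standard error 0.15, edgeR adjusted p = 0.0423) was just past the threshold. The call was lost with DESeq2 (0.42, adjusted p = 0.117), without LIN9 KO replicate 1 or 2 (0.28 and 0.46, edgeR adjusted p = 0.237 and 0.0614) and without control replicate 2 or 3 (0.32 and 0.43, edgeR adjusted p = 0.228 and 0.106). Sav1 KO held 41.0, 33.7 and 26.9 CPM and double knockouts 47.0, 40.5 and 54.8 CPM, which overlap (0.48, standard error 0.16, edgeR adjusted p = 0.0242). That call was lost with DESeq2 (0.48, adjusted p = 0.0616), without Sav1 KO replicate 2 or 3 (0.48 and 0.34, edgeR adjusted p = 0.0690 and 0.170) and without double knockout replicate 1 or 3 (0.46 and 0.35, edgeR adjusted p = 0.0662 and 0.159). The LIN9 effect on Sox9 in the second minus that in the first experiment was -0.50 on the log2 scale (standard error 0.23, edgeR adjusted p = 0.853), so a difference between experiments was not shown. Col2a1, the cartilage collagen gene that SOX9 activates in chondrocytes, fell in the LIN9 KO ventricles of the first and second experiments (log2 fold changes of -0.95 and -0.98). Another cartilage collagen gene, Col9a1, rose in both (1.28 and 0.93), and no other tested cartilage marker passed in either.

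Twist1, a basic helix-loop-helix factor of migrating cushion mesenchyme (ENSMUSG00000035799, chr12:33957671-33959829), held 24.0, 33.0 and 22.4 CPM in LIN9 wt and 61.0, 49.5 and 66.8 CPM in LIN9 KO of the first experiment (log2 fold change 1.16, standard error 0.15, edgeR adjusted p = 1.43e-04). The second gave 34.9, 27.0 and 33.2 CPM in controls, 24.6, 27.7 and 25.9 CPM in Sav1 KO, 66.0, 57.0 and 44.7 CPM in LIN9 KO and 33.4, 46.5 and 48.7 CPM in double knockouts. LIN9 KO lay above all controls, whereas the lowest double knockout library was below the highest control. The log2 fold change was 0.82 for LIN9 KO against control (standard error 0.16, edgeR adjusted p = 2.36e-04) and 0.72 for double knockout against Sav1 KO (standard error 0.16, edgeR adjusted p = 0.00176). Of 26 further transcription factors of cushion and mesenchyme, 11 rose and 1 fell in both LIN9 comparisons, again against 8.07% and 6.77% of all genes. The largest joint rises were those of Twist2 (1.52 and 1.78), Snai1 (1.32 and 1.40) and the fibroblast lineage factor Tcf21 (1.31 and 1.34). For Twist2 this is uncertain, since 46.5% of its exonic length is overlapped by an antisense gene.

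Scx (ENSMUSG00000034161, chr15:76457452-76459458), the bHLH factor of tendon and valve progenitors, lies as a whole within an intron of Bop1, which is transcribed from the opposite strand. Its 0 counts would allow up to 3 counts, or 0.325 CPM in the first and 1.12 CPM in the second experiment at most, by counting error alone. Of 1238 protein-coding genes that lie within another gene, 93.4% had 0 counts in all libraries, against 14.2% of 20457 others. The cardiac muscle genes Actc1 and Tnnc1, which every ventricle uses, lie within other genes and were also at 0. Whether Scx was transcribed was therefore not measurable from these counts, and no level or comparison is given.

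No gene of the group passed the test between Sav1 KO and control. All 9 had an edgeR adjusted p of 0.999, and 3 of all tested genes, or 0.017%, passed. DESeq2 called 0 of the 9 as well, and 2 of 17675 tested genes. The edgeR count over all genes was 0 to 2 without 1 library. It was 22 without the filter on low counts and 31 with the 2 compared groups alone. The groups overlapped for all 9, while 5.97% of all tested genes had every Sav1 KO library above and 6.14% had every one below the controls. The log2 fold changes ran from -0.28 for Twist1 (standard error 0.17) to 0.02 for Vim (standard error 0.10), and 8 of 9 were negative. The unadjusted p of edgeR was below 0.05 for 1 of the 9, Pdgfra (log2 fold change -0.23, standard error 0.11), and for 3.93% of all tested genes. The value for Pdgfra ran from -0.36 to -0.16 without 1 library. That unadjusted level was reached by 2 of the 9 without control replicate 2 (658 of 17679 tested genes) and by 1 without Sav1 KO replicate 2 (548 of 17676). It was reached by 0 of the 9 without Sav1 KO replicate 1 or 3 (629 of 17680 and 560 of 17667 tested genes). The same held without control replicate 1 or 3 (681 of 17671 and 648 of 17680).

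Double knockouts kept the higher levels of most of the group. Against Sav1 KO, 8 of the 9 rose, Vim being the exception, where 11.8% of all tested genes rose. Every double knockout library lay above every Sav1 KO library for 8 of the 9 (all but Sox9), a pattern of 21.9% of all tested genes. Against control, 6 of the 9 rose, where 10.7% of all tested genes did: Pdgfrb (log2 fold change 1.07), Pdgfra (1.03), Fbn1 (0.95), Fn1 (0.90), Dcn (0.77) and Lum (0.73). The other 3 were Twist1 (0.43, edgeR adjusted p = 0.0547), Sox9 (0.35, edgeR adjusted p = 0.110) and Vim (0.19, edgeR adjusted p = 0.161), of which Twist1 passed without double knockout replicate 1 (0.54, edgeR adjusted p = 0.0189). All 3 were lowest without double knockout replicate 3, at 0.30 for Twist1, 0.21 for Sox9 and 0.10 for Vim (edgeR adjusted p of 0.270, 0.454 and 0.575). Every double knockout library lay above every control for 7 of the 9 (all but Sox9 and Twist1) and for 19.8% of all tested genes. These comparisons share libraries with the LIN9 KO and Sav1 KO comparisons and are not independent of them.

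Between double knockout and LIN9 KO, no gene of the 9 passed edgeR's test, where 2 of all tested genes, or 0.0113%, did. Unadjusted p was below 0.05 for 2 of the 9 and for 11.8% of all tested genes. Those 2 were Vim (log2 fold change -0.32, standard error 0.10, edgeR adjusted p = 0.168) and Twist1 (-0.39, standard error 0.15, edgeR adjusted p = 0.288). For Vim every double knockout library lay below every LIN9 KO library, as for 7.87% of all tested genes. Vim passed with DESeq2 (-0.31, adjusted p = 0.0227), where 77 of all genes did, and without replicate 3 of LIN9 KO (-0.40, edgeR adjusted p = 0.0300), where 377 did. The other genes had log2 fold changes between -0.18 (Pdgfrb) and 0.27 (Fbn1), with standard errors of 0.10 to 0.17. Both ends rest on single libraries, as Pdgfrb ran from -0.35 (without LIN9 KO replicate 3) to -0.031 (without double knockout replicate 1) and Fbn1 from 0.0046 (without double knockout replicate 3) to 0.43 (without double knockout replicate 1). The interaction, which asks whether Sav1 deletion acted otherwise with Lin9 deleted than with it present, passed the test for none of the 9 and for 0% of all tested genes. DESeq2 called 0 of all genes as well, while edgeR called 64 without replicate 3 of LIN9 KO and 17 without the filter on low counts, none of them among the 9. At an unadjusted p below 0.05 there were 1153 genes by edgeR, or 6.52%, and of the 9 only Vim was among them (-0.34, standard error 0.14, edgeR adjusted p = 0.697). The LIN9 effect did not pass the test of a difference between the experiments for any of the 9 or for any of 17656 genes (0% by edgeR, and 0 by DESeq2). At an unadjusted p below 0.05 there were 1018 genes, or 5.77%, by edgeR, and of the 9 only Sox9 was among them.

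**Figure D2:**
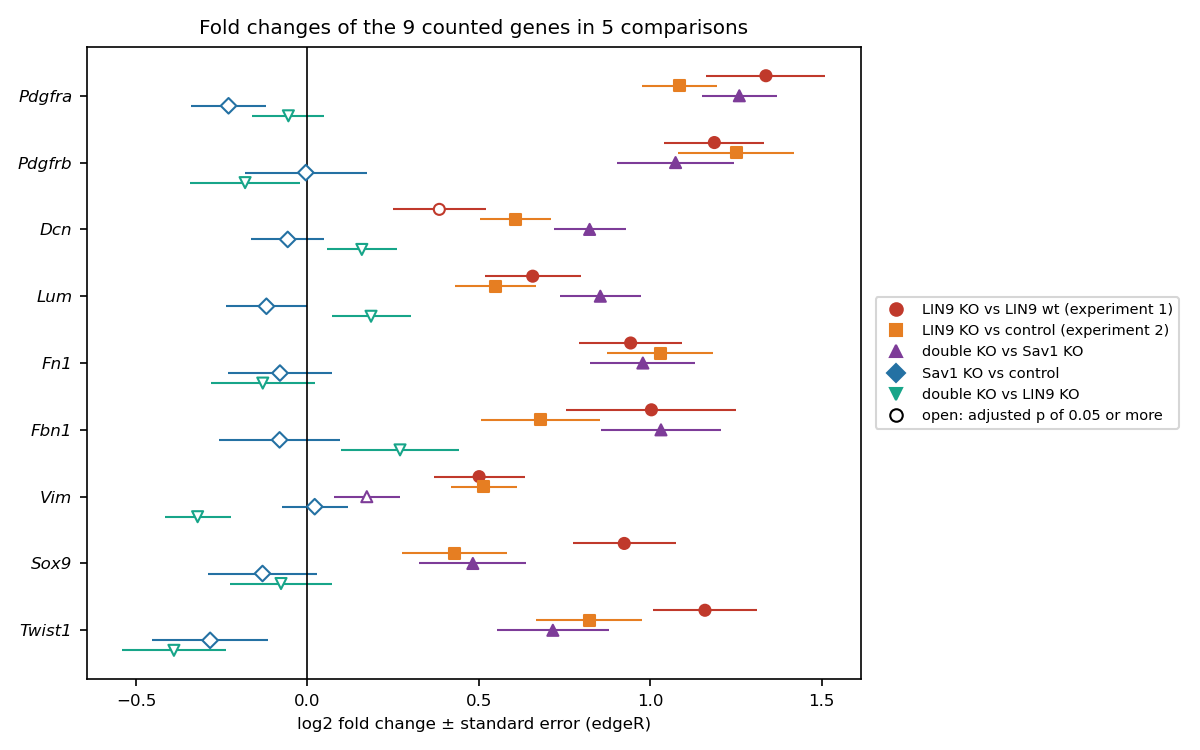
Log2 fold changes from edgeR (horizontal axis) with standard errors (bars) of the 9 counted genes (rows) in 5 comparisons. Filled symbols have an adjusted p below 0.05 and open symbols do not. The 3 LIN9 comparisons lie to the right of 0 for all 9 genes, and both Sav1 comparisons lie around 0, with Vim and Twist1 lowest between double knockout and LIN9 KO.

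Per kilobase of exonic length, the order of the levels was shared at the top by all 6 groups. Vim was highest, with 272 to 440 CPM per kb as group means, then Fn1 with 72.7 to 157 and Lum with 45.2 to 81.6 CPM per kb, each step without overlap of libraries. Fbn1, Dcn and Twist1 came next in all groups, and their ranges mostly overlapped. In controls of the second experiment they stood at 18.4, 20.7 and 19.5 CPM per kb, and Pdgfra (12.7), Pdgfrb (9.87) and Sox9 (8.98) followed, the last 2 with overlap. In the LIN9 KO and double knockout groups Sox9 was the lowest with no overlap with Pdgfrb above it (14.5 CPM per kb against 18.3 in the first experiment).

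Replicates of a genotype did not vary in the same way for all of the group. Comparing libraries in pairs within each group gives 18 pairs in all. Fn1 and Fbn1 changed in the same direction in 17 of them, and so did Pdgfra and Pdgfrb in 17. Dcn and Lum changed in the same direction in 14 pairs, but Dcn and Fbn1 went in opposite directions in 15 and Dcn and Fn1 in 14. Double knockout replicate 1 had the highest Dcn (233 CPM) and Lum (243 CPM) of its group together with the lowest Fn1 (1251 CPM), Fbn1 (321 CPM) and Pdgfrb (86.9 CPM). LIN9 KO replicate 2 of the first experiment showed the reverse, with the lowest Dcn (147 CPM) and Lum (150.4 CPM) and the highest Fn1 (1892 CPM) and Fbn1 (489 CPM). The pairs share libraries, so the counts are given as a description. Summed endothelial markers were lowest in the former library of its group (1465 CPM against 1729.8 and 1729.9 CPM) and highest in the latter (2047 CPM against 1622 and 1638 CPM). Summed cardiomyocyte markers likewise were lowest in the former (11319 CPM) and highest in the latter (13829 CPM), and so were macrophage markers (170.6 and 170.7 CPM). Erythroid markers were highest of the group in the former (30863 CPM) and intermediate in the latter. Epicardial markers were lowest of the group in both libraries (508 and 591 CPM), and so were cartilage markers (73.9 and 81.7 CPM). Over all 18 libraries, Pearson's r of deviations from group means was 0.75, 0.55, -0.50 and 0.16 for cartilage markers with Fn1, Fbn1, Dcn and Lum. For epicardial markers and the same genes it was -0.21, -0.31, 0.47 and 0.087. For erythroid markers it was -0.69, -0.42, 0.11 and 0.15. The part of these markers in the pattern was not tested.

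**Figure D3:**
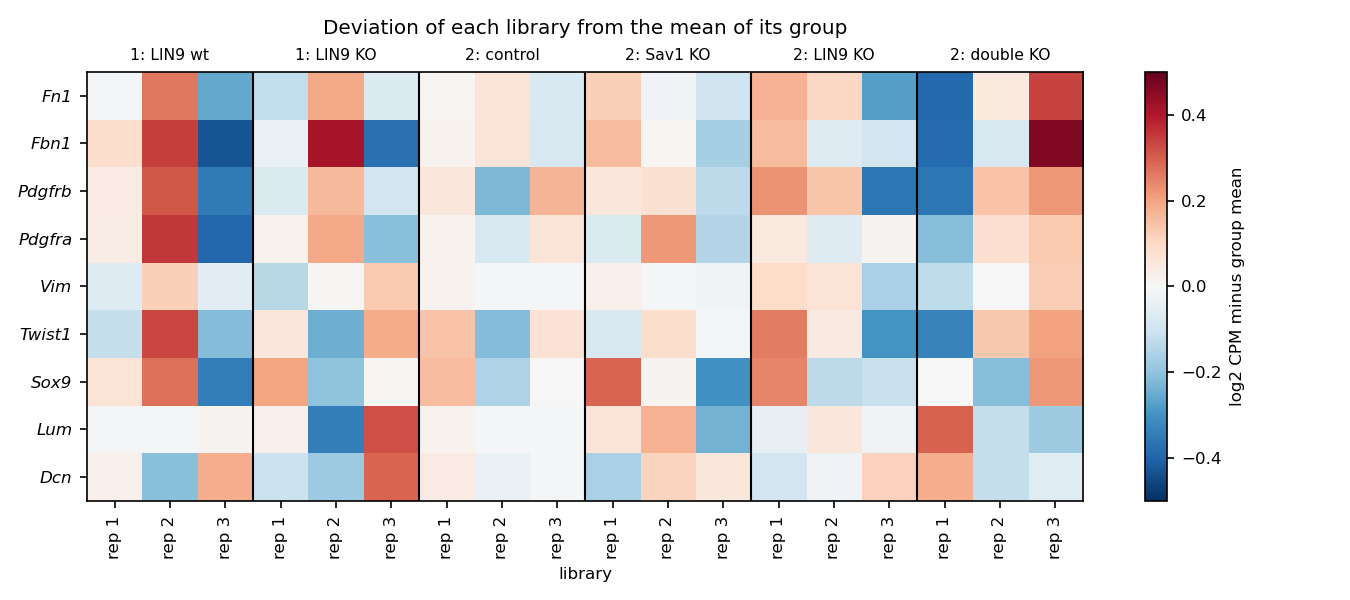
Deviation of log2 CPM from the group mean (colour) for the 9 counted genes (rows) in each of the 18 libraries (columns, by group). Fn1 and Fbn1 share the sign in most libraries, and Dcn and Lum often have the opposite one, as in double knockout replicate 1 and in LIN9 KO replicate 2 of the first experiment.

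Other markers of the fibroblast lineage moved with the group. Of 19 further fibroblast genes tested in both experiments, 16 rose in both LIN9 comparisons, as did 8.07% of all genes, and none fell in either, with Col6a1 (1.38 and 1.81), Tcf21 and Serpinf1 (1.38 and 1.22) as examples. Col1a1 (1.03 and 1.43), Col1a2 (1.15 and 1.32) and Col3a1 (1.12 and 0.95), which encode the fibrillar collagens of the heart, were among them. Of 17 tested genes of cushion and valve matrix, 9 rose in both (8.07% of all genes), such as Cthrc1 (1.34 and 0.94), Tnc (1.29 and 0.59) and Has2 (1.20 and 0.66), the synthase of the hyaluronan that fills the cushions. These lists hold genes that earlier results of the same libraries had shown, and they are no independent evidence.

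Markers of other cell types moved as well, and in bulk RNA fewer cells of a type and less RNA per cell cannot be told apart, nor can more mesenchyme from less of the rest. Cardiomyocyte markers summed to 22077 to 22994 CPM in LIN9 wt and 10263 to 13829 CPM in LIN9 KO of the first experiment, and to 23192 to 24140 CPM in controls, 24244 to 25582 CPM in Sav1 KO, 10952 to 13794 CPM in LIN9 KO and 11319 to 13642 CPM in double knockouts of the second. Of 10 tested, 8 fell and none rose in LIN9 KO of either experiment, where 9.78% and 10.5% of all tested genes fell, and 2 further ones (Actc1 and Tnnc1) were at 0. Over all tested genes, 11.1% rose in the first and 12.7% in the second experiment. All 8 epicardial markers were tested and 7 rose in each, from a sum of 321 to 344 CPM to 591 to 696 CPM in the first and from 296 to 307 CPM to 564 to 633 CPM in the second experiment. Endothelial and endocardial markers rose for 5 of 10 in each, from 1313 to 1657 CPM to 1622 to 2047 CPM and from 1452 to 1477 CPM to 1599.8 to 1883 CPM, and 1 of them fell in the second. Macrophage markers rose for 7 and 6 of 8, from 77.8 to 83.6 CPM to 144 to 171 CPM and from 94.0 to 97.2 CPM to 164 to 191 CPM. Of 8 smooth muscle and pericyte markers, 1 rose and 3 fell in each, with sums of 1671 to 1927 CPM in LIN9 wt and 2160 to 2385 CPM in LIN9 KO of the first and of 1656 to 1727 CPM in controls and 1543 to 1935 CPM in LIN9 KO of the second. Erythroid markers, which rose for 12 and 13 of 13 tested with Alas2 at 0, went from 7923 to 10971 CPM to 34912 to 90861 CPM and from 4262 to 5351 CPM to 21223 to 39057 CPM. Schwann and neural markers summed to at most 19.5 CPM in any library. In the first experiment they went from 9.91 to 10.7 CPM in LIN9 wt to 6.07 to 8.49 CPM in LIN9 KO. In the second they went from 11.6 to 19.5 CPM in controls to 5.58 to 10.5 CPM in LIN9 KO. Of 2 tested, 0 passed in the first and 1 fell in the second. Cartilage markers summed to 64.7 to 130.1 CPM over all libraries. The part of these shifts in the rise of the group was not tested. With the erythroid genes left out of library sizes, normalization and test, the number of the 9 that rose was again 8 in the first experiment. It was 8 in the second, where Sox9 was lost. In these fits 2206 of 19739 and 2121 of 17662 tested genes rose.

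**Figure D4:**
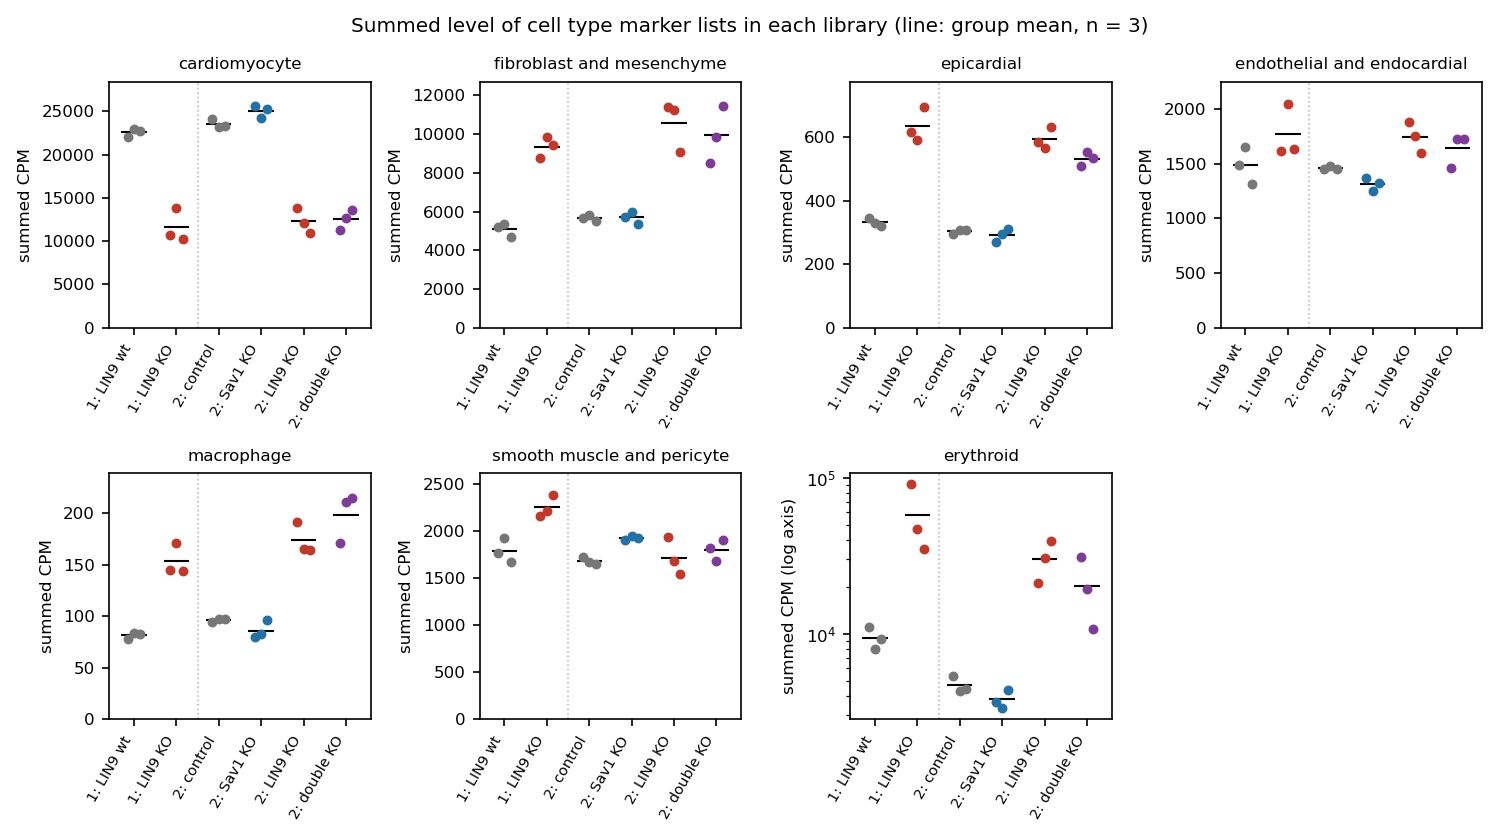
Summed CPM of 7 cell type marker lists (vertical axes, log scale for erythroid markers only) in each library of the 2 experiments, with the group mean of 3 libraries as a line. Cardiomyocyte sums are lower, and fibroblast, epicardial, macrophage and erythroid sums are higher, in every library with deleted Lin9 than in every library of the same experiment without the deletion. The fibroblast list of 17 genes includes the 10 genes described here, so its sum is not separate from them.

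Outside the group, the genes whose log2 CPM ran most like each of the 9 over the 12 libraries of the second experiment were found by Pearson's r, and these libraries include the genotype differences described above. The closest were Col5a2 for Fn1 (r = 0.99 over 12 libraries and 0.99 over the 6 of the first experiment), P4hb for Pdgfrb (0.99 and 0.99), Soat1 for Pdgfra (0.99 and 0.93) and Svep1 for Fbn1 (0.98 and 0.90). They were Ptn, which is also on the cushion matrix list, for Dcn (0.98 and 0.85), Sema3c for Lum (0.97 and 0.79), Aldh2 for Vim (0.98 and 0.98), Arsa for Twist1 (0.98 and 0.92) and Gle1 for Sox9 (0.93 and 0.83). These values rank likeness and carry no test.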

How the data were processed

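RNA of E13.5 mouse heart ventricles was measured in 18 libraries of 6 groups. The deposited values are whole-number counts of reads per Ensembl gene. To make them, the authors mapped reads with TopHat2 (2.1.0, per the submitters' processing notes) and Bowtie2 to mm10, down-sampled each sample to the smallest and counted with summarizeOverlaps. The overlap mode and strandedness of this counting are not given in the sources used here, so reads on overlapping genes cannot be assigned with certainty. The authors' deposited tables of log2 fold changes, log2 CPM and p-values hold their own comparisons and were not used. In each table, 4 duplicated identifiers were reduced to 1 entry each.

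Counts were normalized by TMM and tested by the robust quasi-likelihood method of edgeR 4.0.16 under R 4.3.3 on genes with a mean count above 1. All 12 libraries of the second experiment shared 1 fit with contrasts of group means. Standard errors were derived from the edgeR test, as the absolute log2 fold change divided by the square root of its F statistic. P-values were adjusted by Benjamini-Hochberg over all tested genes with a threshold of 0.05. The edgeR fit was also run on counts simulated with its own estimates of spread. That simulation changed far fewer genes than were called here, equally many up and down. It therefore cannot show how the fit behaves under shifts as broad as those in these data. Levels are CPM on TMM-normalized library sizes, and log2 CPM has a prior count of 2. Levels per length used exonic lengths of GENCODE M21 (GRCm38). Levels of the experiments were normalized separately, and tests were made within a table, except for the difference between the 2 LIN9 effects.

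Alternatives were DESeq2 (1.42.0), library totals without TMM, no filter on low counts, a fit of the 2 compared groups alone, erythroid genes left out, replicate numbers as a block and leaving out each library. The 9 counted genes were tested in every comparison. The genes of the group, the background lists and the marker lists were chosen with earlier results of these data known. From each background list, up to 3 genes called in the same direction in both LIN9 comparisons were named, by the largest mean absolute log2 fold change. Col1a1, Col1a2, Col3a1, Col2a1 and Col9a1 were named from the lists after their values had been seen. The genes most alike were those with the highest Pearson's r over the second experiment outside the group.

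Whether replicate numbers pair libraries was checked by correlating deviations from group means of same-numbered libraries. Over genes with a mean count of at least 10, every pair exceeded 0.1 for LIN9 KO and control of the second experiment (0.216 to 0.599, and 0.0891 to 0.393 over all tested genes), and not for the other pairs of groups that were compared. The pairing comes from these values alone, since no source names a shared litter or day.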

Additional observations from a re-analysis of the deposited data

How the results depend on the processing

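The LIN9 rises of the 9 genes kept their direction under every alternative and without any single library in both experiments, and so did the differences between double knockout and Sav1 KO or control. The counts of the 9 that passed ranged from 7 to 9 without 1 library in the first and in the second LIN9 comparison. They ranged from 7 to 8 for double knockout against Sav1 KO and from 6 to 7 against control. Of 19652 to 19777 tested genes, 1473 to 2305 rose in these fits of the first LIN9 comparison. In the second experiment, with 17642 to 17681 tested, 1565 to 2092 rose for LIN9 KO. For double knockout 1399 to 1804 rose against Sav1 KO and 1148 to 1594 against control. With replicate numbers as a block (the replicate block), Dcn passed in the first experiment (0.38, edgeR adjusted p = 0.00291) and Fbn1 was lost in the second (0.68), and no other call of the 9 changed. Without the low-count filter, Fbn1 of the first experiment was lost (1.00, edgeR adjusted p = 0.0958) and Twist1 passed between double knockout and control (0.43, edgeR adjusted p = 0.0253). Sox9 of the second LIN9 comparison was lost with library totals without TMM (0.42, edgeR adjusted p = 0.0501), with the 2 compared groups alone (0.40) and without the erythroid genes (0.41). The cause was not tested. The count of all genes in the first LIN9 comparison (4131) was 2722 to 4223 without 1 library, lowest without LIN9 wt replicate 3. For Sav1 KO against control (3 genes) it was 22 without the filter, 31 with the 2 groups alone and 0 to 2 without 1 library. For double knockout against LIN9 KO (2 genes) it was 77 with DESeq2, 309 without the filter, 0 with the 2 groups alone, 84 with the replicate block and 0 to 377 without 1 library, highest without LIN9 KO replicate 3. Of the 9 genes, 1 (Vim) passed there with DESeq2 and 0 to 1 without 1 library. The interaction (0 genes) gave 17 without the filter and 0 to 64 without 1 library, highest without LIN9 KO replicate 3, and the difference between experiments (0 genes) gave 0 to 1.

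Log2 values near 0 changed sign without 1 library. For Sav1 KO against control these were Dcn (-0.12 to 0.0080), Pdgfrb (-0.12 to 0.083), Sox9 (-0.30 to 0.0093) and Vim (-0.0026 to 0.032). For double knockout against LIN9 KO these were Fn1 (-0.31 to 0.031), Pdgfra (-0.12 to 0.034) and Sox9 (-0.19 to 0.064). For the interaction these were Fn1 (-0.22 to 0.12), Sox9 (-0.087 to 0.25) and Twist1 (-0.24 to 0.048). For the difference between experiments these were Fn1 (-0.061 to 0.19), Lum (-0.27 to 0.053), Pdgfrb (-0.11 to 0.21) and Vim (-0.059 to 0.068, and -0.0036 with DESeq2). The order of the 9 genes without length correction kept 1 to 4 of them at their place in a group. Sox9 and Twist1, which had the fewest counts, had standard errors of 0.15 and 0.15 in the first and 0.15 and 0.16 in the second LIN9 comparison, and the effect of depth was not tested.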
